A study of Mus musculus with 12 samples.

Results

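Aminoacyl-tRNA synthetases attach amino acids to their tRNAs. Of the 36 genes described here 20 encode enzymes of the cytosol, or subunits of them, and 16 encode those of mitochondria. Their chromatin was profiled in nuclei of mouse hepatocytes. The assay, ATAC-seq, counts where a transposase can insert adapters, which it does mostly in open DNA. Members were the rows of the peak table whose nearest gene, as annotated by the authors, was 1 of these 36 symbols. This gave 75 peaks of 52530, at 33 of the 36 genes, with 49 within 1 kb of the gene's start and 26 beyond. No peak was listed to Kars, Hars2 or Rars2. The nuclei came from 6 female HEP-INTACT mice, all of which carry a genetic tag on hepatocyte nuclei that lets these be pulled from whole liver on beads. Of these mice 3 ate freely and 3 were fasted for 16 h from ZT12, the onset of the active phase, with all livers collected at a matched hour. Fresh and frozen liver of each mouse gave 1 library each, so there were 4 groups of 3 libraries. The columns of each group carry the letters A to C, values are given in that order, and a mouse is named by its letter. The sources used here give neither strain nor age nor the promoter that drives the tag. In pooled nuclei, fewer nuclei that are open at a peak and fewer cuts in each nucleus cannot be told apart.

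The enzymes fall into classes I and II, which differ in the fold of the catalytic domain, and most amino acids have separate cytosolic and mitochondrial enzymes from separate genes. Gars and Kars serve both compartments, Eprs joins the glutamate and proline enzymes in a single protein, and several cytosolic enzymes sit in a multi-synthetase complex. When amino acids run short, uncharged tRNA activates the kinase GCN2 (gene Eif2ak4), the factor ATF4 accumulates, and C/EBP-ATF response elements near many cytosolic synthetase genes are bound. In the liver, fasting shifts amino acids from protein synthesis towards glucose production.

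The core of that element, TGATGNAA on either strand, was searched in RefSeq promoter windows of GRCm38.p6 (mm10), which run from 250 bases before a gene's start to 50 bases after it. Windows were found for 27 of the 36 members, and the core stood in 5 of the 27, at Aars, Gars, Iars, Tars and Yars, or 18.5% against 4.51% of 27025 genes (3.97% of all 32851 windows, since a gene can have several). All 5 genes encode cytosolic enzymes (5 of 13 with a window), and no mitochondrial member had a match (0 of 14). Shown first are the 250 bases before the start of the 3 genes with a match there, with the match in capitals, 5′ to 3′ on the gene's strand. Aars lies at chr8:111033592-111033841 (plus strand), Gars at chr6:55037751-55038000 (plus) and Tars at chr15:11399659-11399908 (minus).
Aars: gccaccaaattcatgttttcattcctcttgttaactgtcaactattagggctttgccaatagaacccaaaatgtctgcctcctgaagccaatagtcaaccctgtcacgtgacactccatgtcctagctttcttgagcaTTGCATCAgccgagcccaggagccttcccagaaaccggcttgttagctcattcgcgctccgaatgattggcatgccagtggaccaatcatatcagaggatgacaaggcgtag
Gars: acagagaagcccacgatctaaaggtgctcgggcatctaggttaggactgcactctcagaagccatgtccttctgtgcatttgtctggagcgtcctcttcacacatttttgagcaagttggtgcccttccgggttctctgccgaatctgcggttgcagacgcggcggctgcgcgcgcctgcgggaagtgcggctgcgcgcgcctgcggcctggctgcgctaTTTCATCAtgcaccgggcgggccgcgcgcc
Tars: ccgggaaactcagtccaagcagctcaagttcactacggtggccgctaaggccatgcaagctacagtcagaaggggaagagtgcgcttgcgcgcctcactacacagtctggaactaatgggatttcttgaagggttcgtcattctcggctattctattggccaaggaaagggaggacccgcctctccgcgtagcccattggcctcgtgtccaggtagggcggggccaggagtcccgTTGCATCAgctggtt
The matches begin 112 bases before the start at Aars, 30 before it at Gars and 15 before it at Tars, and the other matches lie just after the start, where a second match was also found at Aars. All 6 matches lie inside the gene's start peak. The 30 bases around each are at chr4:129189895-129189924 for Yars, chr8:111033840-111033869 for Aars and chr13:49682126-49682155 for Iars, all on the plus strand.
Yars: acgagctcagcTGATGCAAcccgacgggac
Aars: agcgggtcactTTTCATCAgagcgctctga
Iars: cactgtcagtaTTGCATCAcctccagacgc
The upstream window of Mars2, the mitochondrial methionine enzyme, is shown as a contrast. This gene was picked by its values from those with a start peak called for both fasting and freezing. Of such start peaks 3 rose with both, and 4, Mars2 among them, rose with fasting and fell with freezing. The Mars2 window lies at chr1:55236927-55237176 (plus strand) and holds no match, so it has no capitals.
Mars2: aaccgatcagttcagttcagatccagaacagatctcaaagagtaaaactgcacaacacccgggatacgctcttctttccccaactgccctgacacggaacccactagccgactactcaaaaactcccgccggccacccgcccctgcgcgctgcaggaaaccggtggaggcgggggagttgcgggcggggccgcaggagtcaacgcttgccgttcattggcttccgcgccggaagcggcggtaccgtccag
Matches are a description of letters and not evidence of binding.

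Other promoter motifs were searched on both strands of the same 27 windows. The GC box GGGCGG stood at 19 genes (70.4% against 38.2% of all genes) and the ETS core CCGGAAG at 9 (33.3% against 9.93%), among them Mars2, Gars and Mars. The E-box CACGTG stood at 5 (18.5% against 8.09%), of which Aars, Iars and Tars also held the C/EBP-ATF core. CCAAT was found at 13 (48.1% against 41.1%) and TATAAA at 3 (11.1% against 15.7%), while the palindromic NRF1 motif was found at none (1.07% of all genes). By window the shares were 35.7%, 8.86%, 7.15%, 37.4%, 13.6% and 0.971% in the same order. The members' windows had a median GC content of 57.3% and 17.5 CpG, against 52.7% and 7 for all windows, and the motifs' shares were not adjusted for this base composition. Of the 27 genes 6 had the start of a divergent gene within 1 kb, or 22.2% against 12.3% of 27025 genes.

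By the authors' annotation 38 of the 75 peaks (50.7%) were promoter peaks, against 27.9% of all peaks, and 30 (40%) were intronic, against 38.2%. Intergenic peaks made up 3 of 75 (4%) against 26.9%. The nearest gene is not always the gene in which a peak lies. By the transcript named in the annotation, 10 of the 75 peaks belonged to another gene, 5 as introns and 5 as promoters. The introns were those of Elapor1 (2 peaks listed to Sars), Atp8b1 (Nars), Tenm4 (Nars2) and Adamts12 (Tars). The promoters were of genes that share a start region with the member: Lyrm4 with Fars2, Mrps12 with Sars2, S100pbp with Yars, Hars2 with Hars, and D17H6S56E-5 near Vars.

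For each gene the peak nearest to its start and at most 1 kb from it is called the start peak, and 31 of the 36 genes had 1. Values are reads per 200 bp peak, normalized by the authors to library size. Over all 12 libraries the start peaks averaged from 70.1 normalized reads at Sars2 to 377 at Lars, with a median of 258 against 167 for all peaks within 1 kb of a start. The 5 genes without a start peak of their own had a peak listed to a neighbour's start within 125 bp of an end of the gene as RefSeq gives it. These were the peak of Wdr25, 96 bp from Wars (the tryptophan enzyme), with a mean of 240.3 normalized reads, and that of Terf2ip, 21 bp from Kars (lysine), with 164. The peak of Ubfd1 lay 125 bp from Ears2 (mitochondrial glutamate) with 323, that of Hars 15 bp from Hars2 with 212, and that of Orc3 44 bp from Rars2 (mitochondrial arginine) with 369. Because these peaks count for the neighbour, 4 of the 5 are not among the 75 (the exception is that of Hars).

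Depth, taken from the smallest step between the values of a library as 1 read, ran from 3.69 to 14.5 (in units of 1e+06 reads in peaks), with 51 to 217 reads in the median peak. The members' peaks held 13.42 to 15.04 of every 10000 reads. Hepatocyte markers checked the label: 8 of 10 had a peak at their start, with 14 peaks averaging 235 normalized reads, and no start peak was listed to any of 8 macrophage, 8 endothelial or 6 lymphocyte markers. Reln (of 7 stellate cell markers) and Sox9 (of 5 bile duct markers) had 1 start peak each. The summed hepatocyte marker peaks ran from 2641 to 2713 in the fed fresh group, 2845 to 3049 in fasted fresh, 3412 to 3630 in fed frozen and 3800 to 4248 in fasted frozen. This sum moved with both feeding and freezing, and its part in the results was not tested.

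The first comparison was of fasted against fed mice, averaged over the fresh and frozen library of each mouse. At 7 of the 31 start peaks of synthetase genes the signal rose and at none did it fall, and the largest of these changes was 1.29-fold, at Iars2. The larger differences lay at a few peaks inside genes. Beyond 1 kb, 1 peak rose and 6 fell of 26. Differences are of log2(normalized reads + 1), fasted minus fed, printed beside their standard error (SE), and are too small for peaks with few reads. A peak is called at an adjusted p under 0.05 by limma, two-sided, adjusted over all 52530 peaks.

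Over all members 12 peaks were called higher and 6 lower, 24.0% of 75, against 34.6% of all peaks (16.5% higher and 18.1% lower). Among start peaks 22.6% were called, against 24.2% of all peaks within 1 kb of a start (19.7% higher and 4.59% lower). Their median difference was 0.15 against 0.12 for those peaks, with a range from -0.02 to 0.36. Above 0 were 28 of 31, against 14354 of 18534 peaks within 1 kb of a start. Of the peaks beyond 1 kb 26.9% were called, against 40.2% of such peaks in general (14.8% higher and 25.4% lower), with a median of -0.22 against -0.05. The members' share of calls was thus near or below the background in each class. The calls near starts depend on the scale: with libraries rescaled to the same median over peaks near starts, which shifted the median of all peaks by -0.12, none of the 31 start peaks was called, and the members' calls became 3 higher and 8 lower. The same rescaling moved the calls over all peaks from 8678 higher and 9485 lower to 4065 and 12845. They also depend on single mice: the 12 calls fell to 3 without fasted mouse A or without fed mouse B, and to 6 without fed mouse A or fed mouse C. Higher calls over all peaks fell too, from 8678 to 4939 without fasted mouse A and to 5023 without fed mouse B. The plot of start peaks by gene shows the order.

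**Figure D1:**
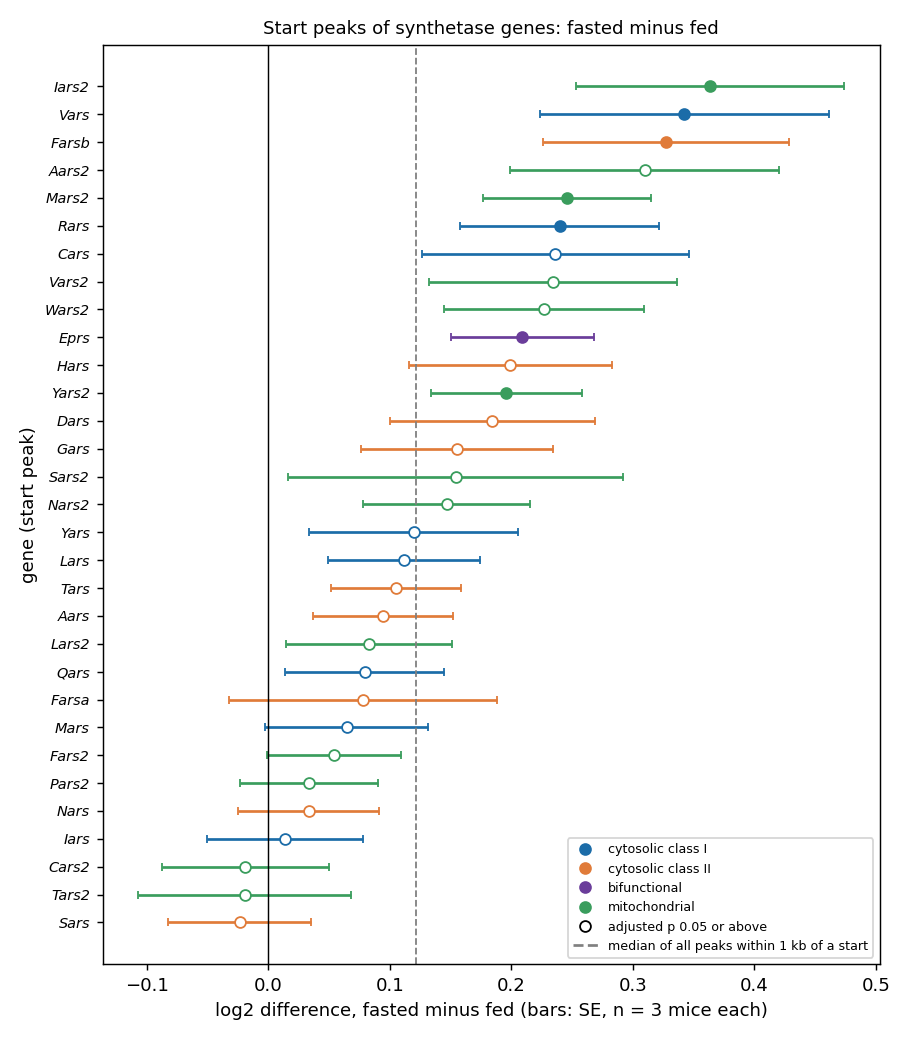
Log2 difference (x axis, fasted minus fed, points with SE, 3 mice per feeding state) at the start peak of 31 synthetase genes (y axis), colored by class of enzyme, with open points where the adjusted p was 0.05 or above. The 7 filled points lie between 0.20 and 0.36, and most genes sit close to the dashed line, the median of 0.12 for all peaks within 1 kb of a start. After rescaling to peaks near starts none of the 31 was called.

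Among cytosolic class I enzymes 2 of 8 start peaks rose, those of Vars (valine) by 0.34 ± 0.12 and Rars (arginine) by 0.24 ± 0.08, with a median of 0.12 over the 8. Of the 9 class II start peaks 1 rose, that of Farsb, the beta subunit of the phenylalanine enzyme, by 0.33 ± 0.10, while Farsa, its alpha subunit, was at 0.08 ± 0.11 (adjusted p = 0.605). The class II median was 0.10. The Eprs start peak rose by 0.21 ± 0.06 (adjusted p = 0.0217). Over the 7 enzymes of the multi-synthetase complex with a start peak (Dars, Eprs, Iars, Lars, Mars, Qars and Rars), 2 rose and the median was 0.11. Of the 13 mitochondrial start peaks 3 rose, with a median of 0.15: Iars2 (isoleucine) by 0.36 ± 0.11 (adjusted p = 0.0298), Mars2 by 0.25 ± 0.07 (adjusted p = 0.022) and Yars2 (tyrosine) by 0.20 ± 0.06 (adjusted p = 0.0352). No class had a start peak that fell.

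Single libraries show how small these shifts were. The Aars start peak (alanine, chromosome 8, 111033722 to 111033922) held 208, 204 and 212 normalized reads in fed and 216, 234 and 247 in fasted fresh libraries. Its frozen libraries held 313, 314 and 307 (fed) and 331, 330.4 and 294 (fasted). Fasted libraries were all above fed ones in fresh tissue and overlapped them in frozen tissue, and the difference was 0.09 ± 0.06 (adjusted p = 0.223). The Eprs start peak (chromosome 1, 185362858 to 185363058) held 250.3, 264 and 212 in fed and 269, 249 and 233 in fasted fresh libraries, which overlapped. Frozen tissue gave 307, 323 and 354 (fed) and 399.5, 399 and 474 (fasted), with every fasted library higher. Its call was lost without fasted mouse A, fed mouse A or fed mouse C (adjusted p up to 0.0766).

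Gars, the glycine enzyme, had 154, 154 and 166 (fed) and 182, 178 and 144 (fasted) normalized reads at its start in fresh tissue (chromosome 6, 55037910 to 55038110). Frozen tissue gave 207, 177 and 186 (fed) and 220.2, 228 and 220.3 (fasted), and only in frozen tissue were the groups apart, with an average difference of 0.16 ± 0.08 (adjusted p = 0.15). At the Tars start peak (threonine, chromosome 15, 11399649 to 11399849) fresh libraries held 244, 219 and 232 (fed) and 263, 254 and 269 (fasted), without overlap. Frozen libraries held 409.8, 452 and 452 (fed) and 458, 451 and 434 (fasted), which overlapped, and the average difference was 0.10 ± 0.05 (adjusted p = 0.151). The groups thus separated in a single preparation at each of Aars, Eprs, Gars and Tars. Of the 31 start peaks 10 separated in fresh and 14 in frozen tissue, all with fasted libraries higher. A share over all peaks was not set beside these counts. By limma the fasting difference was not called as different between preparations at any of these genes' start peaks (adjusted p from 0.967 to 0.996).

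The start peak of Iars, a class I enzyme of the complex (chromosome 13, 49681972 to 49682172), held 344, 325 and 323 (fed) and 333, 312 and 316 (fasted) in fresh and 297, 258 and 266 (fed) and 282, 316 and 267 (fasted) in frozen libraries. The groups overlapped in both preparations, at 0.01 ± 0.06 (adjusted p = 0.884). Mars, the cytosolic methionine enzyme (chromosome 10, 127311624 to 127311824), held 272, 288 and 279.9 (fed) and 279, 269 and 259.9 (fasted) in fresh, and 269, 304 and 309 (fed) and 361, 335 and 309 (fasted) in frozen libraries. Its groups overlapped in fresh tissue, and in frozen tissue the highest fed and the lowest fasted library both stood at 309, with an average difference of 0.06 ± 0.07 (adjusted p = 0.478). Nars, for asparagine (chromosome 18, 64516518 to 64516718), stood at 341, 327 and 332 (fed) and 317, 335 and 336 (fasted) in fresh and at 312, 285 and 304 (fed) and 315, 308 and 334 (fasted) in frozen libraries. Sars, for serine (chromosome 3, 108445145 to 108445345), stood at 290.2, 289 and 277 (fed) and 286, 262 and 305 (fasted) in fresh and at 250.2, 226 and 249 (fed) and 230.2, 251 and 225 (fasted) in frozen libraries. Fed and fasted libraries of both genes overlapped, with differences of 0.03 ± 0.06 (adjusted p = 0.676) at Nars and -0.02 ± 0.06 (adjusted p = 0.775) at Sars.

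Among mitochondrial enzymes, the Iars2 start peak (chromosome 1, 185329301 to 185329501) held 125, 102 and 112 (fed) and 136, 122 and 132 (fasted) normalized reads in fresh libraries. Frozen libraries held 72.7, 63.7 and 79.7 (fed) and 114, 111 and 89.01 (fasted). The groups overlapped in fresh and were apart in frozen tissue, and means per mouse went from 92.6 ± 8.49 to 117 ± 7.12 (SD, n = 3). The call was lost without fasted mouse A, fasted mouse B or fed mouse B (adjusted p up to 0.114). Lars2, for leucine (chromosome 9, 123366758 to 123366958), stood at 319, 300.1 and 289.8 (fed) and 316, 288 and 324 (fasted) in fresh libraries, which overlapped. In frozen libraries it stood at 197, 189.5 and 174 (fed) and 212, 200.5 and 203 (fasted), where every fasted library was higher. Its average difference was 0.08 ± 0.07 (adjusted p = 0.362).

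Near starts but outside the start peaks, 4 more peaks rose, at Vars, Vars2, Fars2 and Wars2. A second Vars2 peak (mitochondrial valine, chromosome 17, 35667827 to 35668027) held 101, 108 and 116 (fed) and 157, 144 and 145 (fasted) in fresh libraries. Among frozen libraries the values were 120.3, 84.4 and 138 (fed) and 173, 173 and 174 (fasted). All 6 fasted libraries lay above all 6 fed ones, at 0.54 ± 0.11 (adjusted p = 0.00496), and the call held without each mouse in turn. The peak listed to Vars and annotated to D17H6S56E-5 (chromosome 17, 35001177 to 35001377) held 57.7, 37.2 and 53.9 (fed) and 83.5, 78.4 and 84.8 (fasted) in fresh, and 50.03, 57.3 and 78.9 (fed) and 93.7, 69.7 and 93.5 (fasted) in frozen libraries. It was apart in fresh and overlapped in frozen tissue, at 0.61 ± 0.16 (adjusted p = 0.0165), and was lost without fasted mouse A, fed mouse A or fed mouse B (adjusted p up to 0.0644). The others were 0.29 ± 0.08 at the peak shared by Fars2 and Lyrm4 and 0.20 ± 0.07 in Wars2 (mitochondrial tryptophan).

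The largest fasting differences lay inside genes, far from starts. The peak in intron 15 of Lars, 30.4 kb from the start of this leucine enzyme (chromosome 18, 42231560 to 42231760), held 25.7, 11.9 and 33.5 normalized reads in fed and 92.3, 91.9 and 82.5 in fasted fresh libraries. In frozen libraries it held 14.3, 14.3 and 14.02 (fed) and 70.98, 74.1 and 48.96 (fasted). Every fasted library was above every fed one, and the mean per mouse went from 18.97 ± 5.39 to 76.8 ± 9.61 (SD, n = 3), a difference of 2.03 ± 0.23 (adjusted p = 0.000347). At the Lars start peak the average difference was 0.11 ± 0.06 (adjusted p = 0.188), with a call in frozen tissue alone, at 0.21 ± 0.08 (adjusted p = 0.0458).

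At Fars2, for mitochondrial phenylalanine, 4 of 7 peaks fell and 1 rose, the only member gene called both ways. Its peak in intron 3, 185 kb from the start (chromosome 13, 36302823 to 36303023), held 94.96, 110.2 and 104 in fed and 35.3, 40.00 and 16.95 in fasted fresh libraries. Its frozen libraries held 55.99, 49.4 and 44.7 (fed) and 15.5, 11.3 and 13.4 (fasted). All 6 fasted libraries were lower than all 6 fed ones, at -1.81 ± 0.21 (adjusted p = 0.000358). Further peaks of this gene changed by -1.13 ± 0.18, -1.03 ± 0.17 and -0.82 ± 0.22, while the start peak was at 0.05 ± 0.06 (adjusted p = 0.468). The last of the 3, in intron 1, was lost without fasted mouse A, fed mouse A or fed mouse C (adjusted p up to 0.0770).

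The peak at the transcript end of Tars (chromosome 15, 11382664 to 11382864) held 106, 116 and 91.3 (fed) and 43.4, 44.2 and 51.98 (fasted) in fresh libraries. Frozen libraries held 112, 134 and 111 (fed) and 34.6, 34.00 and 22.3 (fasted). No fasted library reached a fed one, and the mean per mouse went from 112 ± 11.9 to 38.4 ± 1.11 (SD, n = 3), at -1.55 ± 0.14 (adjusted p = 0.000164). In intron 3 of Nars2, for mitochondrial asparagine (chromosome 7, 96959272 to 96959472), fed and fasted fresh libraries held 77.2, 82.3 and 74.9 (fed) and 29.2, 42.6 and 18.1 (fasted). In frozen libraries the values were 65.5, 68.5 and 68.3 (fed) and 32.8, 34.00 and 20.03 (fasted). Again no library overlapped, at -1.33 ± 0.24 (adjusted p = 0.00273). Calls at Lars intron 15, Fars2 intron 3 (-1.81 ± 0.21), Tars and Nars2 held without each mouse in turn. Those of Lars, Fars2 and Nars2 were at low peaks, averaging under 73.7 normalized reads, the cutoff of the lowest 25% of all peaks. Of the 6 lower calls of members 5 lay under this cutoff, and such peaks were not tested in the run without them.

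**Figure D2:**
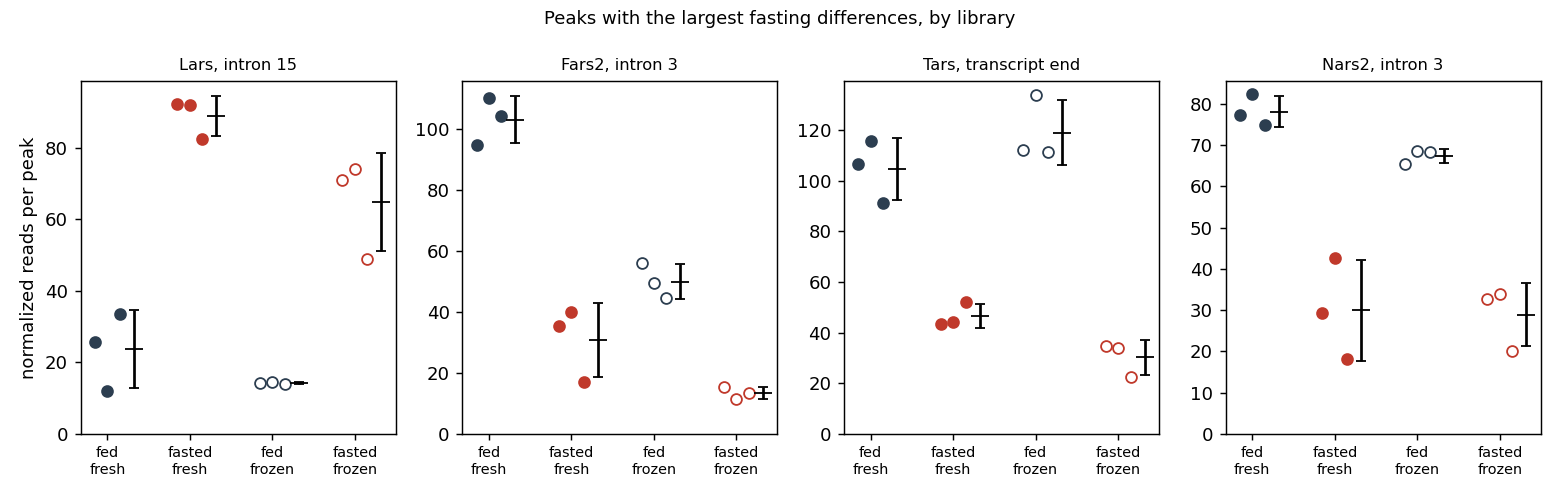
Normalized reads per peak (y axis, from 0) in each of the 12 libraries (points; filled fresh, open frozen) by group (x axis), with the mean and SD of each group of 3 beside them, at 4 peaks away from starts. The Lars peak is higher and the other 3 are lower in every fasted library than in every fed one.

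Over all members 3 peaks were higher and 3 lower in all 6 fasted than in all 6 fed libraries, against 5.16% and 7.79% of all peaks. The higher ones were the second Vars2 peak, the peak shared by Fars2 and Lyrm4, and Lars intron 15. Within fresh tissue alone 6 member peaks were called higher and 5 lower (14.7%, against 22.3% of all peaks, 9.39% higher and 12.9% lower), and within frozen tissue 11 and 8 (25.3% against 35.7%, 17.3% higher and 18.4% lower). Called in both preparations were 7 peaks, 2 higher and 5 lower, all in the same direction. A further 8 peaks, 3 of them start peaks (Hars, Lars and Wars2), were called in a single preparation, 2 in fresh and 6 in frozen tissue, and not in the average. Neither count was made over all peaks, so whether the members differ in this was not tested. Without fasted mouse A the calls became 1 higher in fresh tissue, and 7 higher and 5 lower in frozen tissue. The 6 higher calls in fresh tissue also fell to 2 without fed mouse A or B, and to 3 without any of the other mice. Higher calls over all peaks in fresh tissue fell from 4935 to between 2280 and 4431 with a mouse left out. By the authors' deposited table, members were higher at 3 and lower at 6 peaks in fresh tissue (12.0%, against 23.1% of all peaks), and 8 and 8 in frozen tissue (21.3% against 29.5%). The fasting difference itself did not differ between preparations at an adjusted p under 0.05 at any of the 75 peaks (0% of all peaks were called). By limma the unadjusted p was under 0.05 at 5 of the 75, against 2702 of all 52530 peaks. The lowest among members was at the transcript end of Tars, which changed by -1.15 ± 0.19 in fresh and -1.96 ± 0.19 in frozen tissue (adjusted p of the difference 0.865). In fits with the mouse as a block there were still no such member calls, against 187 higher and 208 lower over all peaks.

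The second comparison was of frozen against fresh tissue, over 6 libraries each with feeding state as a covariate. This fit did not pair the fresh and frozen library of a mouse. With the mouse as a block all 50 member calls were still made in the same direction. At synthetase starts the differences were larger than with fasting and ran both ways: 14 start peaks rose, 14 fell, and 3 (Aars2, Sars2 and Nars) were not called. Among all 49 member peaks within 1 kb of a start 18 rose and 18 fell. This called share of 73.5% compares with 65.4% of all peaks within 1 kb of a start (37.6% higher and 27.7% lower). The start peaks' own share of 90.3% is of 1 peak per gene, at a higher median level (258 against 167 normalized reads). It was not set against the nearest peaks of other genes. Over all members 19 were higher and 31 lower, 66.7% against 61.5% of all peaks (28.7% and 32.8%). The absolute difference at a start peak had a median of 0.37 for freezing and 0.15 for fasting, and was larger for freezing at 28 of 31 genes. This is not particular to the members: of all peaks within 1 kb of a start 65.4% were called for freezing and 24.2% for fasting. The count of larger freezing differences was not made over those peaks. All 6 frozen libraries lay above all 6 fresh ones at 14 member peaks and below them at 13, against 15.2% and 11.7% of all peaks. Fresh and frozen tissue also differ in the reads per library and in the hepatocyte marker sum given above, and the part of either was not tested.

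**Figure D3:**
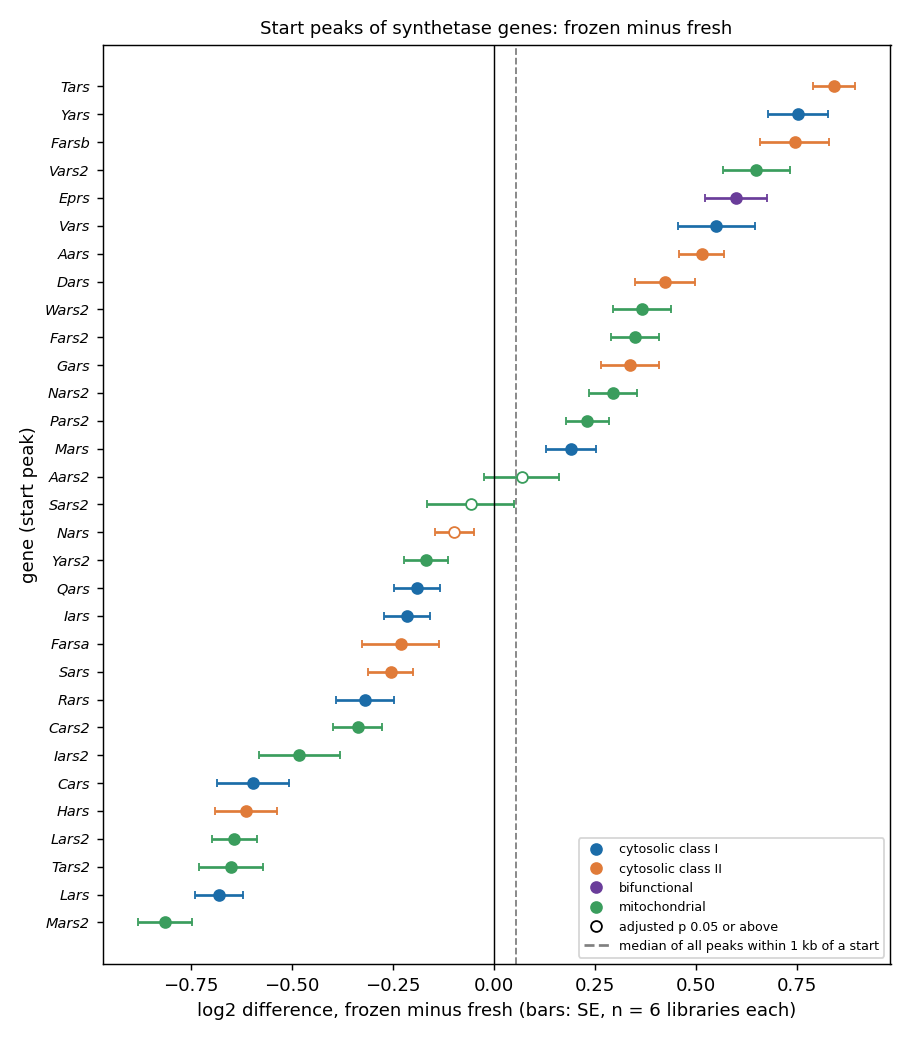
Log2 difference (x axis, frozen minus fresh, points with SE, 6 libraries per preparation) at the start peak of 31 synthetase genes (y axis), colored by class of enzyme, with open points where the adjusted p was 0.05 or above. The genes spread from -0.81 at Mars2 to 0.84 at Tars, with 14 called on each side. The call at Mars was lost after rescaling to peaks near starts.

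Among start peaks, cytosolic class II enzymes had 5 rises of 9 with 3 falls and a median of 0.34, and class I 3 of 8 with 5 falls and a median of -0.20; a difference between classes was not tested. Mitochondrial start peaks rose at 5 and fell at 6 of 13. Higher in frozen tissue were Tars by 0.84 ± 0.05, Yars (tyrosine) by 0.75 ± 0.07, Farsb by 0.75 ± 0.09, Vars2 by 0.65 ± 0.08, Eprs by 0.60 ± 0.08 and Aars by 0.51 ± 0.06. Lower were Mars2, at -0.81 ± 0.07, Lars, at -0.68 ± 0.06, Tars2, at -0.65 ± 0.08, Lars2, at -0.64 ± 0.06, and Hars (histidine), at -0.61 ± 0.08. The cytosolic and mitochondrial enzymes for 1 amino acid could move apart: Tars rose and Tars2 fell, and Mars rose by 0.19 ± 0.06 and Mars2 fell. Both leucine enzymes fell, as did both cysteine enzymes (Cars -0.60 ± 0.09, Cars2 -0.34 ± 0.06). The Mars call was lost after rescaling to peaks near starts and without fasted mouse A or fasted mouse B (adjusted p up to 0.0591 without a mouse).

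The library values given above carry these differences. At Tars all 6 frozen libraries (409.8 to 458) lay above all 6 fresh ones (219 to 269). At Aars the frozen libraries held 294 to 331 and the fresh ones 204 to 247, again apart. At Lars2 the frozen libraries (174 to 212) were all below the fresh ones (288 to 324). Iars (-0.22 ± 0.06 (adjusted p = 0.00338)) and Sars (-0.25 ± 0.06 (adjusted p = 0.000776)) were lower in frozen tissue too, with overlap at Iars and none at Sars. Gars rose by 0.34 ± 0.07 (adjusted p = 0.000629) with 1 frozen library among the fresh ones, and Nars stood at -0.10 ± 0.05 (adjusted p = 0.0869).

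The Mars2 start peak (chromosome 1, 55237096 to 55237296) held 398, 378 and 361 (fed) and 424, 379.7 and 436 (fasted) in fresh libraries. Frozen tissue gave 213, 174 and 208 (fed) and 256, 248 and 263 (fasted). Every frozen library lay below every fresh one, while the fasted libraries were above the fed ones in frozen tissue and overlapped them in fresh tissue. Its fasting call (0.25 ± 0.07) was lost without fasted mouse A, fed mouse B or fed mouse C (adjusted p up to 0.0866). The Yars start peak, shared with S100pbp (chromosome 4, 129189775 to 129189975), held 112, 104 and 112 (fed) and 125, 112 and 104 (fasted) in fresh and 167, 189.5 and 173 (fed) and 219, 184 and 200.3 (fasted) in frozen libraries, without overlap of the preparations. The Vars2 start peak (chromosome 17, 35667471 to 35667671) held 104, 82.3 and 90.7 (fed) and 104, 116 and 109.6 (fasted) in fresh and 148, 127 and 167 (fed) and 163, 175 and 174 (fasted) in frozen libraries, also without overlap. Neither passed the average fasting test at this peak (adjusted p = 0.3 at Yars and 0.0992 at Vars2).

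The largest rises with freezing lay just before 2 starts. The peak 283 bases before the Farsb start (chromosome 1, 78489080 to 78489280) held 55.02, 46.5 and 60.5 (fed) and 61.8, 73.2 and 63.3 (fasted) in fresh libraries. Among frozen libraries the values were 154, 149.7 and 172 (fed) and 197, 181 and 162 (fasted), all above the fresh ones, at 1.49 ± 0.09 (adjusted p = 1.59e-09). The neighbour of the Tars start peak (chromosome 15, 11399848 to 11400048), which adjoins it on the upstream side, held 99.4, 101 and 117 (fed) and 112, 83.1 and 83.6 (fasted) in fresh and 186, 205 and 198 (fed) and 200.2, 202 and 134 (fasted) in frozen libraries. It rose by 0.91 ± 0.11 (adjusted p = 1.54e-06), again without overlap.

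Of the 26 peaks beyond 1 kb 13 fell with freezing and 1 rose (53.8% called, against 59.4% of such peaks, 35.5% lower and 23.9% higher). In intron 15 of Farsb (chromosome 1, 78446247 to 78446447) fresh libraries held 89.6, 69.04 and 65.1 (fed) and 50.2, 60.3 and 32.8 (fasted), and frozen ones 19.1, 14.3 and 16.6 (fed) and 9.1, 13.9 and 15.6 (fasted). The preparations did not overlap, at -1.95 ± 0.20 (adjusted p = 3.38e-07), and a peak that shares 102 bases with it was at -1.90 ± 0.18. In intron 1 of Fars2 (chromosome 13, 36149655 to 36149855) fresh libraries held 75.4, 71.7 and 90.7 (fed) and 50.9, 67.01 and 33.9 (fasted), and frozen ones 27.4, 22.3 and 28.04 (fed) and 10.01, 15.7 and 13.4 (fasted). These did not overlap either, at -1.71 ± 0.19 (adjusted p = 6.47e-07). In intron 3 of Eprs (chromosome 1, 185370061 to 185370261) the values were 146, 123 and 127 (fed) and 130.3, 115 and 141 (fasted) in fresh and 64.3, 81.2 and 70.1 (fed) and 42.8, 61.9 and 77.9 (fasted) in frozen libraries, at -0.99 ± 0.13 (adjusted p = 4.24e-06) and without overlap. Eprs, Fars2, Farsb, Gars and Nars2 each had peaks called in both directions with freezing, with the start peak higher and inner or distant peaks lower. The frozen values in Farsb intron 15 were low, so the log2 difference there is sensitive to the added 1 read.

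**Figure D4:**
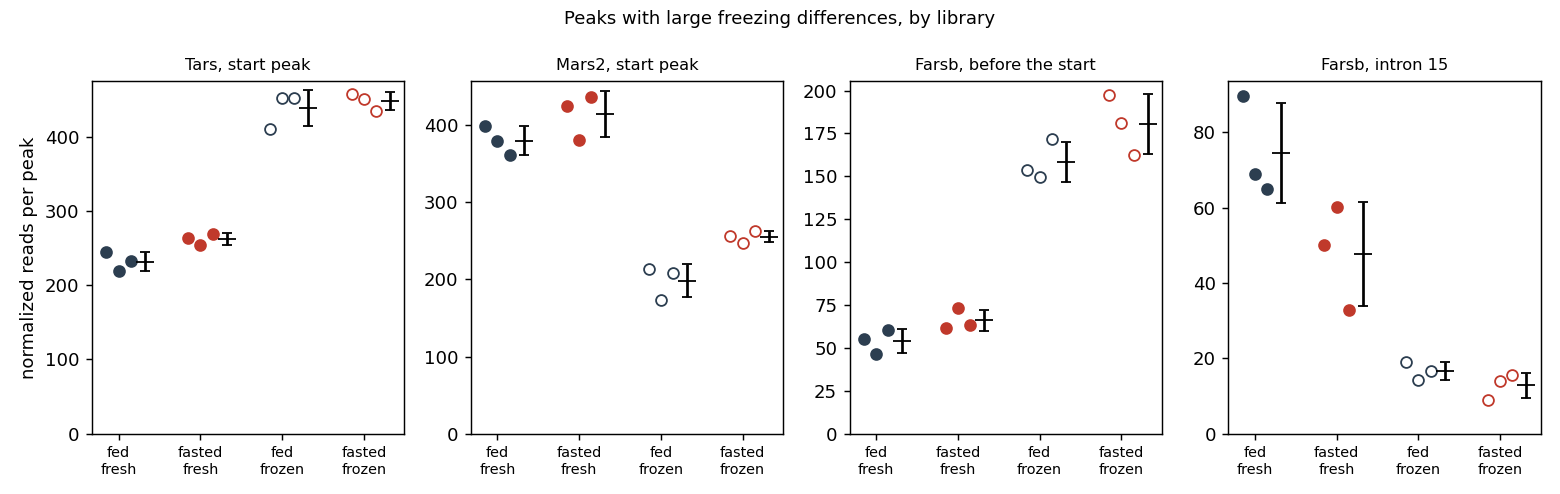
Normalized reads per peak (y axis, from 0) in each of the 12 libraries (points; filled fresh, open frozen) by group (x axis), with the mean and SD of each group of 3 beside them. Frozen libraries are all higher than fresh ones at the Tars start and before the Farsb start, and all lower at the Mars2 start and in Farsb intron 15.

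**Figure D5:**
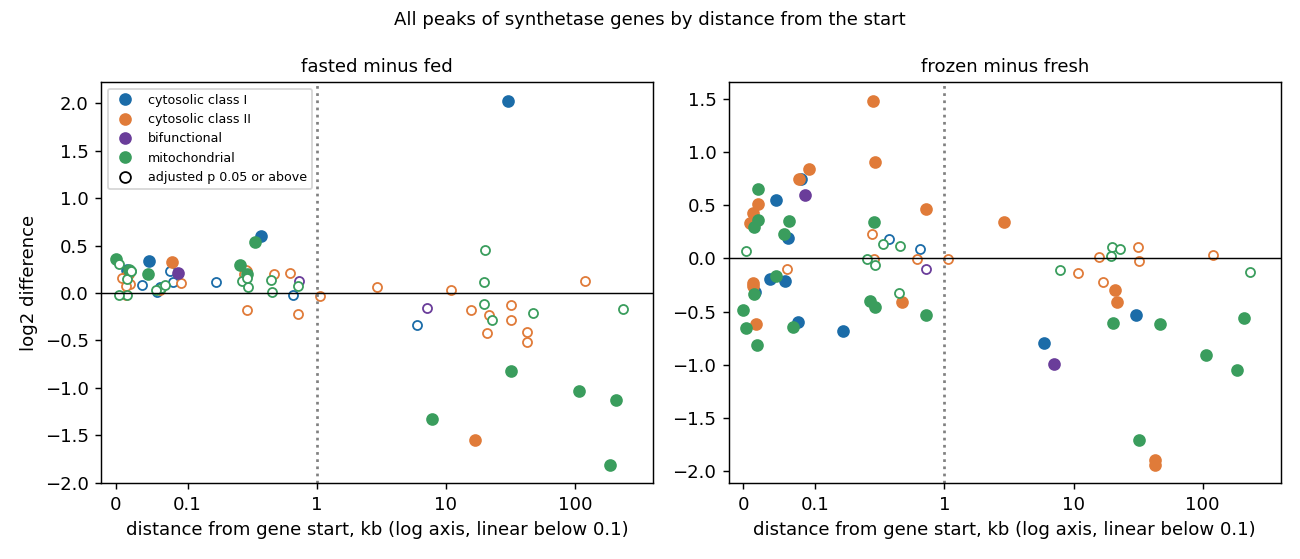
Log2 difference (y axis) of all 75 peaks against the distance from the gene's start (x axis, kb on a log scale that is linear below 0.1), for fasting (left) and freezing (right), with filled points for called peaks and a dotted line at 1 kb. On the left the called points near starts lie above 0 and 6 of the 7 beyond 1 kb lie below it. On the right both signs occur near starts and 13 of the 14 called peaks beyond 1 kb lie below 0. On the left no start peak was called after rescaling.

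Of the 5 genes with the C/EBP-ATF core printed above none had a start peak that was called for fasting, with differences from 0.01 (Iars) to 0.16 (Gars) and a median of 0.10, while 5 of the 19 other start peaks with a promoter window were called, with a median of 0.15. With freezing 4 of the 5 rose and Iars fell, over a range of -0.22 to 0.84, and 8 of the 19 others rose. Mars2, without the core, rose with fasting and fell with freezing, but it was picked by these values and so is no comparison for the core. A difference between genes with and without the core was not tested.

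The neighbours' peaks at the 5 remaining loci gave no call for average fasting. They were at 0.03 ± 0.07 for Wars, 0.10 ± 0.08 for Kars, 0.11 ± 0.07 for Ears2, 0.20 ± 0.08 for Hars2 and 0.17 ± 0.06 for Rars2, with adjusted p from 0.0562 (Rars2) to 0.757 (Wars). In frozen tissue alone those at Hars2 (0.33 ± 0.10, adjusted p = 0.0219) and Rars2 (0.29 ± 0.07, adjusted p = 0.00627) rose. The only peak listed to Wars itself, in its intron 2 (chromosome 12, 108887182 to 108887382), was at -0.34 ± 0.19 (adjusted p = 0.195) for fasting and fell with freezing, at -0.80 ± 0.15. The only peak of Ears2 lay in exon 7 (chromosome 7, 122044203 to 122044403) and was at -0.29 ± 0.14 (adjusted p = 0.136) for average fasting. It fell in frozen tissue, at -0.53 ± 0.16 (adjusted p = 0.0158) with no overlap, and stood at -0.04 ± 0.16 (adjusted p = 0.881) in fresh tissue.

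Genes that work beside the synthetases were read from lists, of which the peaks named here were chosen after their values were seen. The partners of tRNA charging, such as the complex scaffolds Aimp1 and Aimp2 and the threonine enzyme Tarsl2, had 25 peaks at 14 of 15 genes, of which 4 were higher and 3 lower with fasting (16.0% and 12.0%, against 16.5% and 18.1% of all peaks), and 2 and 4 after rescaling to peaks near starts. A peak 289 bases after the Tarsl2 start rose by 0.37 ± 0.07 and that at the start of Dtd1, which frees tRNAs from D-amino acids, by 0.22 ± 0.07. A distant peak listed to Eef1e1, a complex scaffold, fell, at -1.71 ± 0.26. Translation elongation factors had 28 peaks at 8 of 9 genes, 7 higher and 4 lower (25% and 14.3%), and 2 and 4 after rescaling. Among them were a peak 937 bases after the Eef2 start at -0.71 ± 0.11 and a distant Eef1a1 peak at 1.11 ± 0.17. Medians of the 2 lists were 0.16 and 0.11, against 0.05 for all peaks, and 0.03 and -0.02 (against -0.08) after rescaling.

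The list of the GCN2 and ATF4 amino acid response had 115 peaks at 24 of 27 genes, with 27 higher and 14 lower with fasting (23.5% and 12.2%, against 16.5% and 18.1% of all peaks) and a median of 0.09. Most of the higher calls came from several peaks each at Cebpb, Gpt2 and Phgdh, some of them overlapping, and do not stand for as many genes. After rescaling to peaks near starts the balance turned, with 16 higher, 25 lower and a median of -0.04. All 52530 peaks shifted the same way under this rescaling, to 4065 rises against 12845 falls. Their median went from 0.05 to -0.08, so the list's median lay above it on both scales. Partly overlapping peaks within 1 kb of the start of Cebpb, a factor that can pair with ATF4, rose by 0.42 ± 0.07 to 0.82 ± 0.10, and 1 at Ddit3, a target of ATF4, by 0.53 ± 0.16. A distant peak of Gpt2, a mitochondrial alanine aminotransferase, rose by 1.66 ± 0.21. Peaks of the same list also fell, at -1.46 ± 0.15 before the start of Ddit4, an inhibitor of mTORC1 signalling, at -0.84 ± 0.16 near the start of Vldlr, at -1.01 ± 0.20 at a distant peak of Slc38a2, an amino acid transporter, and at -0.65 ± 0.06 at a Chac1 peak 4049 bases after its start. A distant Atf4 peak fell too, at -1.15 ± 0.28. The start peaks of Atf4 (0.09 ± 0.06, adjusted p = 0.278), Chac1 (0.00 ± 0.06, 0.986) and Eif2ak4 (0.00 ± 0.09, 0.976) were not called. With freezing the response list had 49 higher and 18 lower peaks (42.6% and 15.7%, against 28.7% and 32.8% of all peaks), elongation factors 14 and 4 (50.0% and 14.3%), and charging partners 6 and 10 (24.0% and 40.0%). Most of the elongation factor peaks were listed to Eef1a1, many of them far from its start.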

How the data were processed

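ATAC-seq libraries of bead-bound hepatocyte nuclei were sequenced as paired ends, per the labels' protocols. Tools listed in the submitters' processing notes are HOMER, DESeq2, SAMtools and BWA 0.7.5a-r405, and the build is mm10, with no role given. The handling of the transposase offset, of duplicates and of multiply mapped reads is not given in the sources used here. Multiply mapped reads matter most at peaks in repeats. The authors deposited 1 table of 52530 merged peaks of 200 bp with signal columns of reads per peak, normalized by 1 size factor per library. All values of a column are whole multiples of its step within 0.01 of a step, taken as 1 read for the depths. Per the file headers, the deposited table also holds a peak score (not used) and, for the fasting contrast in each preparation, log2 fold changes with adjusted p-values, made by a method the headers do not name.

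Values were fitted as log2(value + 1) without a filter by limma 3.58.1 under R 4.3.3 with a trended prior, two-sided tests and a Benjamini-Hochberg threshold of 0.05 over all peaks, after a check on simulated data. For fasting both libraries of a mouse were averaged, 3 mice against 3, and the contrast was repeated within each preparation in 1 fit of 4 groups. Freezing was tested over 12 libraries without pairing those of a mouse. The labels number the mice but the columns carry only letters. Same-letter columns deviated together (r from 0.329 to 0.640 for 6 pairs, highest other r 0.0213), all above 0.1, so letters were taken as mice, a pairing that rests on these correlations. p-values measure the spread between these mice or libraries.

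Peaks with values in every library were 10 start peaks fixed by gene (9 exist, Wars having none) and up to 4 called peaks each way for fasting and for freezing, 1 per gene. Members, lists and rules were chosen with earlier results of these data known. Promoter windows come from RefSeq (GRCm38.p6), which matched 27 of 36 members. Cars, Hars, Lars, Nars, Rars, Vars, Wars, Hars2 and Pars2 had none. Alternatives were a pseudocount of 5, no peaks of the lowest 25%, libraries rescaled to peaks near starts, each mouse left out, and a block on the mouse. Reads can be PCR copies of 1 molecule, so depth speaks for counting error alone.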

Additional observations from a re-analysis of the deposited data

How the results depend on the processing

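Directions did not turn at any called peak with values in every library, in any alternative run. For average fasting, 12 higher member peaks became 21 when all 12 libraries were fitted without averaging (no replicate block), 3 after rescaling to peaks near starts, and 3 to 9 with a mouse left out. The 6 lower became 5 to 8 with a mouse left out. In fresh tissue the 6 higher became 2 after rescaling and 1 to 3 with a mouse left out, and the 5 lower 5 to 7. In frozen tissue the 11 higher became 5 after rescaling and 7 to 11 with a mouse left out, and the 8 lower 5 to 10. For freezing 18 to 20 were higher and 27 to 29 lower with a mouse left out. Without the lowest 25% of peaks, which took 20 of the 75 member peaks out of the test, lower calls became 1 (average), 1 (fresh), 3 (frozen) and 17 (freezing), and higher calls in fresh tissue 2. Over all peaks, higher fasting calls moved from 8678 to 13222 without averaging and 4065 after rescaling (fresh 4935 to 2421, frozen 9076 to 4634). With a mouse left out these higher calls ran from 4939 to 8053 (fresh 2280 to 4431, frozen 6080 to 8049). Without the lowest 25% the lower calls over all peaks moved from 9485 to 5310 (fresh 6780 to 3435, frozen 9678 to 5744, freezing 17223 to 10716). With the mouse as a replicate block all 50 freezing calls of members were still called, and the interaction over all peaks moved from 0 to 187 higher and 208 lower. Apart from the peaks taken out, the cause of these shifts was not tested. Among member peaks within 1 kb of a start, the 11 higher average fasting calls became 2 after rescaling and 2 to 8 with a mouse left out. A count model was planned and not run, since 8 of the 12 columns did not pass the planned acceptance check, which starts from the smallest value as 1 read. In those 8 the smallest value was 2 to 5 reads by the step used for the depths, at which all values came out whole. In the shallowest library the median peak held 51 reads, which limits small differences there.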
